A study of Mus musculus with 10 samples.

Results

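Thy1, Cd44, Pdgfra, Pdgfrb, Eng, Ly6a, Cd34 and Nt5e encode cell surface proteins by which fibroblasts and mesenchymal stromal cells are commonly recognised and sorted. These 8 genes were taken by symbol from a table that gives an ATAC-seq signal for 21965 genes, and all 8 were in it, each once. ATAC-seq uses a transposase that places sequencing adapters into open DNA, so the signal over a gene measures how accessible its chromatin is and not how much RNA or protein it makes. Thy1 (CD90) and Ly6a (Sca-1) are small proteins held in the membrane by a GPI anchor. Pdgfra and Pdgfrb are receptor tyrosine kinases for platelet-derived growth factors, and Cd44 binds hyaluronan. Eng (CD105) is a co-receptor of the TGF-beta family, Cd34 is a sialomucin, and Nt5e (CD73) makes adenosine from AMP outside the cell. In the reprogramming of fibroblasts to pluripotent cells, loss of Thy1 from the surface is an early and widely used sign that cells have left the fibroblast state.

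All 10 libraries were made from mouse embryonic fibroblasts (MEFs) of E13.5 embryos with a transgene in which the Oct4 promoter drives GFP, labelled strain ICR, infected with pMXs retroviruses and kept in mESC medium. About 50000 cells went into each library. The control received a Flag virus. Sox2, Klf4, Oct4 and the Oct4 mutant L80A (Oct4-L80A) were each given alone, SKO is Sox2, Klf4 and Oct4 together, and SKO-L80A has the mutant in place of Oct4. In SKO+shBrg1 a hairpin RNA that targets Brg1 was added to SKO. Of the additions to SKO-L80A, vitamin C (SKO-L80A+Vc) was used at 50 µg/ml, and Gadd45a, a stress-response gene, gives SKO-L80A+Ga. Every condition has 1 library, so no difference below carries a replicate error or a test. Each library has 2 columns in the table, whose relation no source used here gives, and they were read as repeat measurements of 1 sample. A pseudocount of 0.138 was added to each signal before log2 was taken. Differences are means over both columns, less the median difference of all genes in that comparison. The size rule for calling a gene higher or lower asked for a 2-fold difference on this scale and for a signal of 6.92, the median of all values, in at least 1 of the compared conditions.

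The column sums of the signal ran from 112439 to 370390, and across genes the columns of the same library correlated at 0.979 to 0.992 (Pearson, log2 scale). Over Sox2, the library labelled Oct4 had a signal of 62.9 and 55.2 against 2.73 and 5.12 in Flag, although its label names Oct4 alone, and Oct4-L80A had 2.37 and 5.47. The library labelled Oct4 is therefore named as such wherever it is compared. The fibroblast label was read against 16 matrix and transcription factor genes, of which at least 11 reached the minimum signal in every condition and none was at 0. This does not single out fibroblasts, because the lists for other cell types had no gene at 0 either. At most 2 of 9 endothelial and 2 of 8 blood cell genes reached the minimum in any condition. In SKO, however, 8 of 10 neuronal and 4 of 7 pericyte and smooth muscle genes did so. In a mixture of cells, a locus open in more cells and a locus more open in each cell cannot be told apart.

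Thy1 was the only one of the 8 genes past the size rule in any of the 14 comparisons. It was higher in Oct4-L80A, both against Flag and against the library labelled Oct4, and 0 of the 8 were lower anywhere. Ly6a and Cd34 had higher levels, as means of both columns, in the 6 conditions given Klf4 than in the 4 others. In column 2 alone the groups overlapped for Ly6a. Pdgfrb was below Flag in all 9 other conditions once the shift of all genes was taken off. Relative to all genes, Cd44, Pdgfra and Nt5e kept nearly the same level throughout, and Eng stayed under the minimum signal in every condition.

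**Figure D1:**
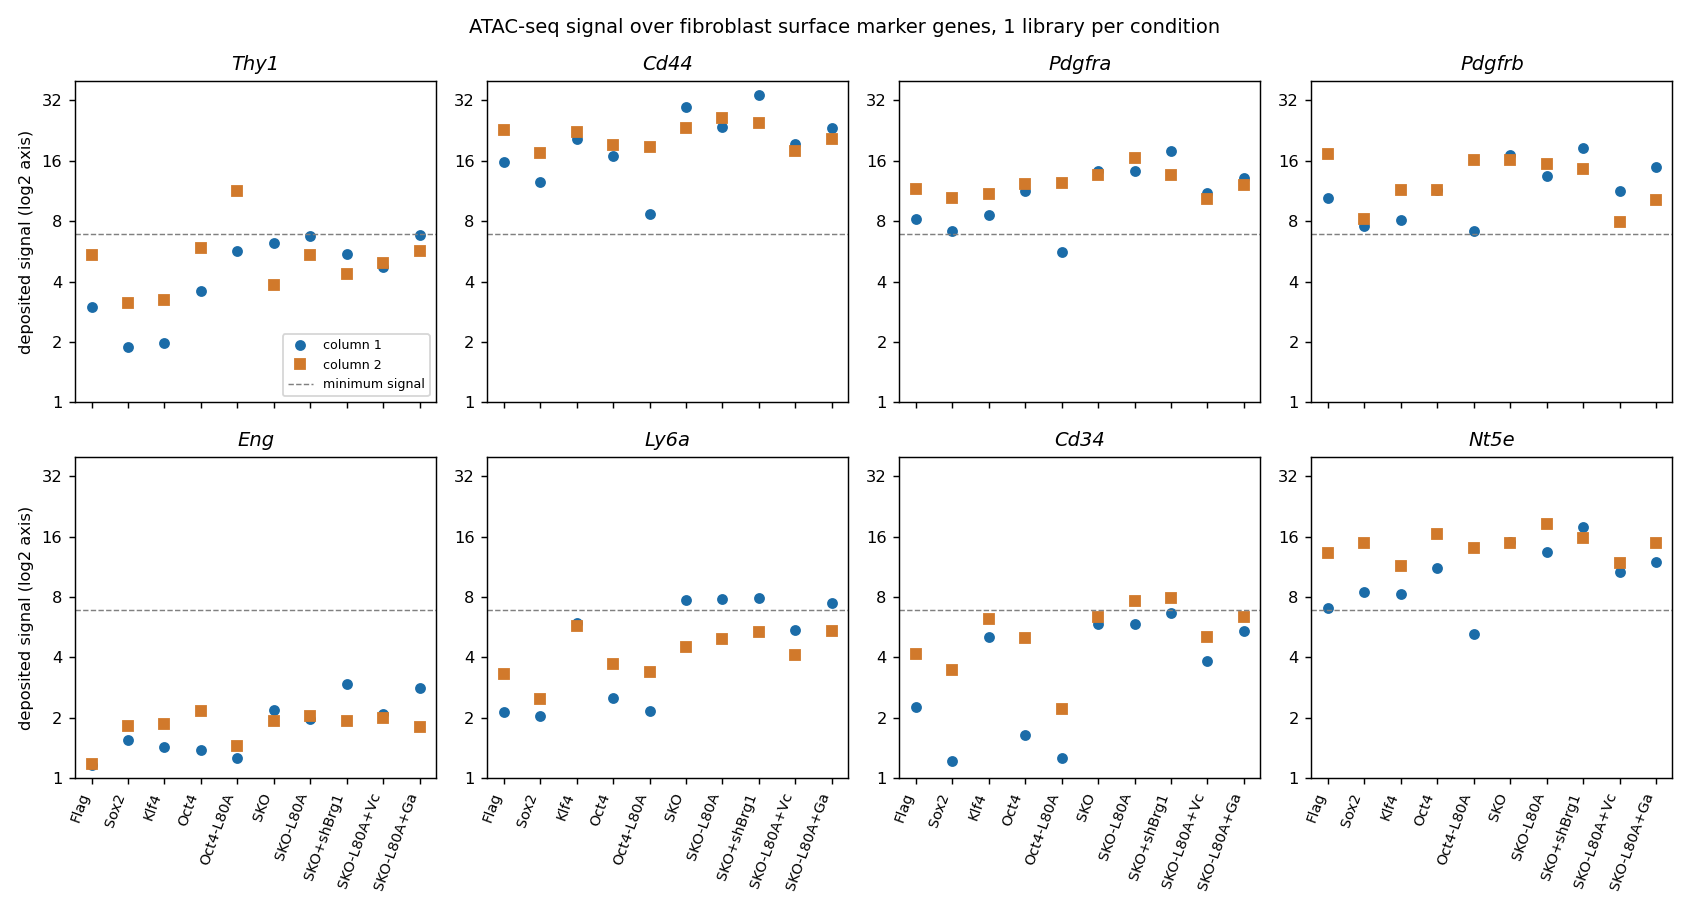
Deposited ATAC-seq signal (log2 axis) over each of the 8 genes in the 10 conditions, with column 1 as circles and column 2 as squares. The dashed line is the minimum signal of 6.92. Thy1 reaches it only in Oct4-L80A, in column 2, and Eng lies below 3 everywhere.

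Thy1 (ENSMUSG00000032011, chromosome 9, 44043384 to 44048579 in GRCm38.p6, the assembly of build mm10) is a protein-coding gene. Its signal in columns 1 and 2 was 3.01 and 5.46 in Flag, 1.88 and 3.12 in Sox2, 1.98 and 3.24 in Klf4, and 3.57 and 5.89 in the library labelled Oct4. Oct4-L80A had 5.72 and 11.3. The conditions with all factors had 6.23 and 3.87 (SKO), 6.79 and 5.44 (SKO-L80A), 5.52 and 4.35 (SKO+shBrg1), 4.73 and 4.95 (SKO-L80A+Vc) and 6.86 and 5.69 (SKO-L80A+Ga). As deposited, the 11.3 of Oct4-L80A is the highest of the 20 values, while its other column, 5.72, lies among those of the SKO conditions. The median shift of all genes in Oct4-L80A against Flag was -0.31 in column 1 and -0.01 in column 2. After the median of all genes was taken off each column, which gives the level used below, both Oct4-L80A columns (0.60 and 0.74 on the log2 scale) lay above the 18 columns of the other conditions. No other gene of the 8 did so, and 1.29% of all genes did.

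Against Flag, Thy1 was 2.18-fold higher in Oct4-L80A, a difference of 1.12, with 1.21 in column 1 and 1.04 in column 2. Of all genes, 0.00911% were called higher in this comparison: these were 2 genes, Thy1 and Pou5f1, the gene of Oct4 itself, whose 31.5-fold difference can include reads from the virus insert. Another 0.00911% were called lower, the genes Gcnt2, a glycan-branching enzyme, and Slc14a1, a urea transporter. Without the centring on all genes, Thy1 was 0.96 above Flag, under the 2-fold limit. In column 1 alone its signal of 5.72 does not reach the minimum, so the call rests on column 2. Thy1 reached the minimum only through Oct4-L80A, with a mean of 8.50 against 4.23 in Flag. The minimum also limited the share of genes called. In this comparison 70 genes differed by 1 to 1.1 and none of them was called, so 2-fold differences were not confined to the called genes. Another 40, Thy1 among them, differed by 1.1 to 1.2, 15 by 1.2 to 1.3 and 18 by 1.3 to 1.4. Of these only Thy1 reached the minimum, so larger differences than its own went uncalled.

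Against the library labelled Oct4, Thy1 was 2.28-fold higher in Oct4-L80A (1.19, with 1.40 in column 1 and 0.97 in column 2). The genes called higher were 0.00911% of all, and the other one was Ankk1, which lies next to the dopamine receptor gene Drd2 (2.14-fold). Genes called lower were 0.200% of all. The call against the library labelled Oct4 is lost without the centring (0.79) and in either column alone. Here too Thy1 reached the minimum only through Oct4-L80A, since its mean in the library labelled Oct4 was 4.73. Because that library also carries Sox2 signal, the effect of the L80A change and the effect of Sox2 cannot be told apart in it.

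The same mutant did not stand out when Sox2 and Klf4 were present. In SKO-L80A against SKO, Thy1 differed by 0.30, with 0.34 in column 1 and 0.25 in column 2, and the levels of the columns overlapped. Whether the difference between L80A and Oct4 itself differs with and without the other factors was not tested, since each condition has 1 library.

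With Sox2 or Klf4 alone, Thy1 was below Flag. The difference was -0.62 in Sox2 (-0.49 and -0.75 in the columns) and -0.68 in Klf4 (-0.70 and -0.66). By level the columns lay below those of Flag in both cases, as they did for 25.1% and 34.3% of all genes. As deposited the columns overlapped, with 3.12 in Sox2 and 3.24 in Klf4 against 3.01 in Flag. Neither passed the size rule, because the difference was under 2-fold and the signal under the minimum. The library labelled Oct4 was at -0.01, SKO at -0.24, SKO+shBrg1 at -0.35, SKO-L80A at 0.05, SKO-L80A+Vc at 0.22 and SKO-L80A+Ga at 0.36. Without the centring, SKO was 0.27 and SKO+shBrg1 0.26 above Flag, so the sign for these 2 conditions depends on it. In the order of levels Oct4-L80A (0.67) came first, followed by SKO-L80A+Ga (-0.33), SKO-L80A+Vc (-0.42), Flag (-0.50), the library labelled Oct4 (-0.63), SKO-L80A (-0.68), SKO (-0.96), SKO+shBrg1 (-1.10), Sox2 (-1.16) and Klf4 (-1.28). Neighbours in this order had separate columns at only 2 places, between Oct4-L80A and SKO-L80A+Ga and between SKO-L80A+Vc and Flag. The range from highest to lowest, 1.94, was the widest of the 8 genes, but without the centring Thy1 spanned 1.67 and Cd34 2.02.

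**Figure D2:**
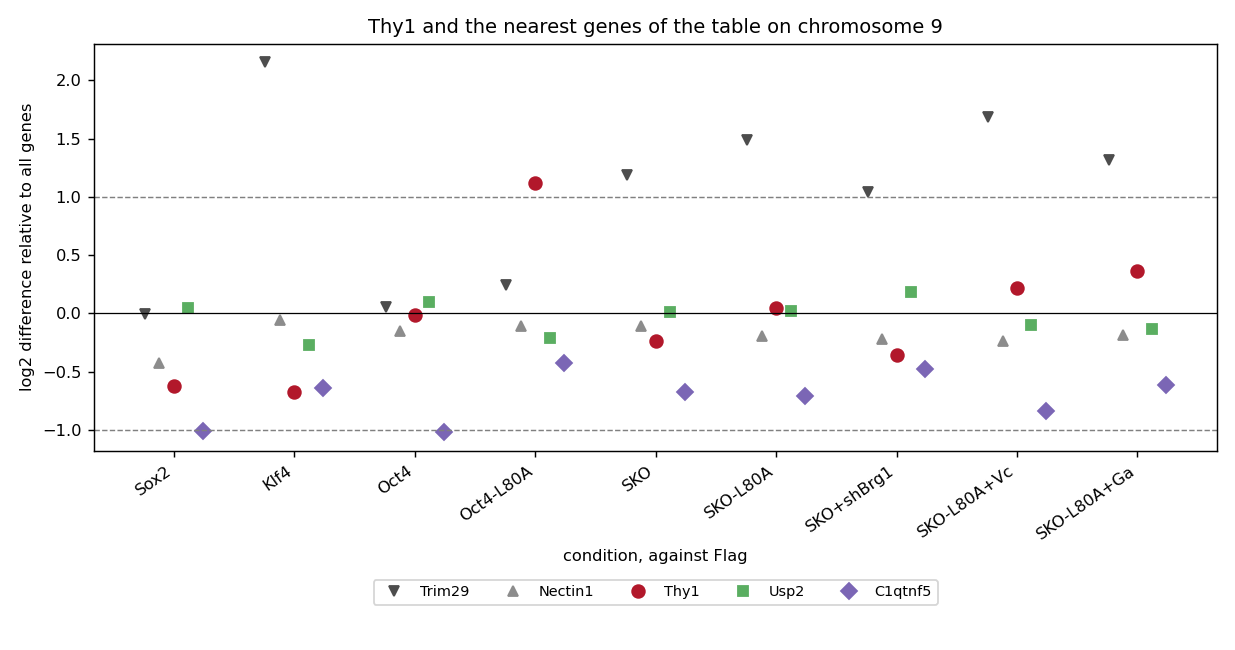
Log2 difference from Flag relative to all genes (vertical axis) for Thy1 and the nearest genes of the table on either side, in each of the 9 conditions. Dashed lines mark 2-fold. In Oct4-L80A, Thy1 stands at 1.12 and its neighbours between -0.43 and 0.25, and Trim29 is at 2.15 in Klf4.

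The genes around Thy1 did not share its difference in Oct4-L80A. Usp2, a deubiquitinase that starts 18442 bases beyond the end of Thy1, was at -0.21 against Flag, and C1qtnf5, a complement C1q-like protein, at -0.43. On the other side, Nectin1, an adhesion molecule 235923 bases away, was at -0.11, and Trim29, a tripartite motif protein of stratified epithelia 707259 bases away, at 0.25. Trim29 was called higher in Klf4 (2.15), where Thy1 was at -0.68. C1qtnf5 was called lower in Sox2 (-1.005) and in the library labelled Oct4 (-1.02). Against the library labelled Oct4, C1qtnf5 was 0.64 higher in Oct4-L80A, with columns apart.

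**Figure D3:**
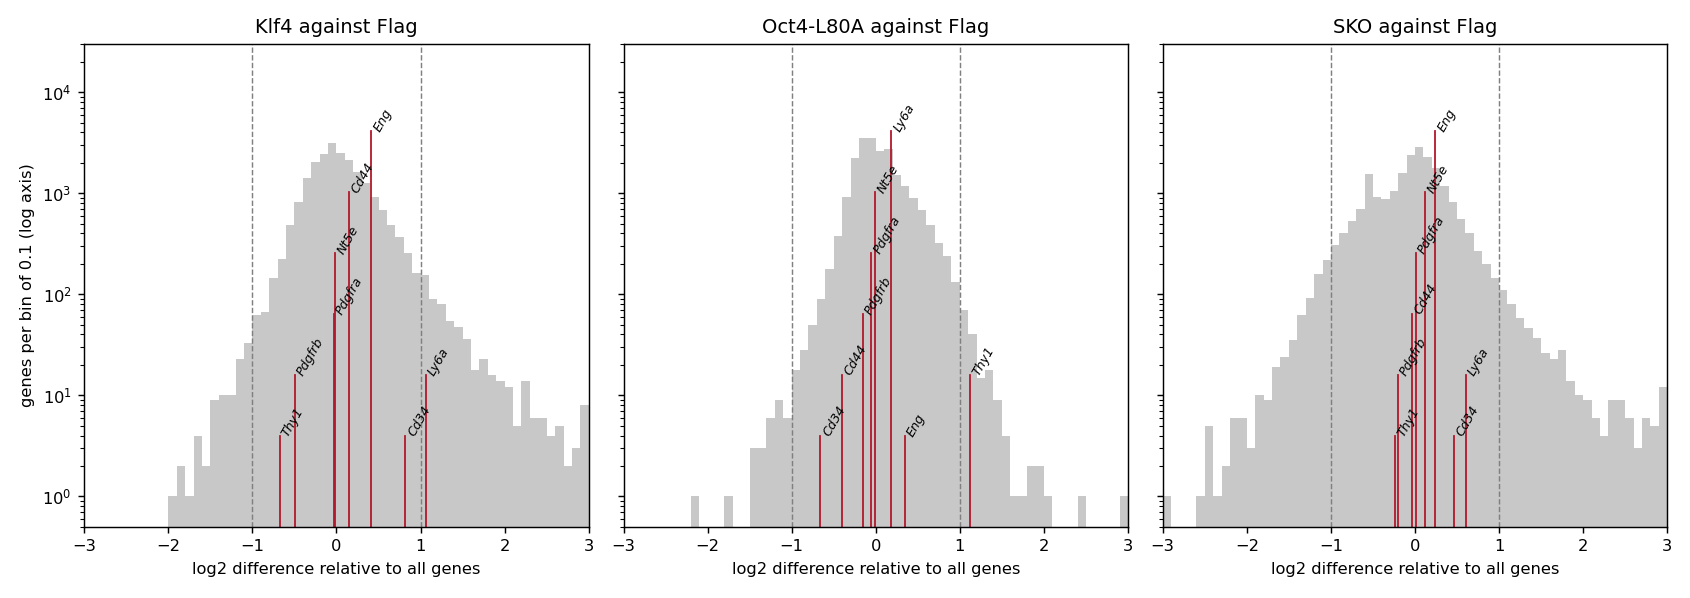
Number of genes (log axis) per 0.1 bin of the log2 difference from Flag in Klf4, Oct4-L80A and SKO, with the 8 genes as red lines whose heights serve only to keep the names apart. Dashed lines mark 2-fold. Thy1 lies at 1.12 in Oct4-L80A, and in Klf4 Ly6a is at 1.06 and Cd34 at 0.82.

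Ly6a and Cd34 shared a pattern over the conditions. Ly6a (ENSMUSG00000075602, chromosome 15, 74994877 to 74998031) marks stem and progenitor cells as well as fibroblast subsets. Its signal was 5.92 and 5.73 in Klf4 against 2.15 and 3.30 in Flag, 2.04 and 2.48 in Sox2 and 2.16 and 3.40 in Oct4-L80A. The library labelled Oct4 had 2.51 and 3.71. The other conditions given Klf4 had 7.72 and 4.51 (SKO), 7.81 and 4.93 (SKO-L80A), 7.93 and 5.35 (SKO+shBrg1), 5.46 and 4.14 (SKO-L80A+Vc) and 7.47 and 5.41 (SKO-L80A+Ga). The 12 columns with Klf4 thus ran from 4.14 to 7.93 and the 8 without from 2.04 to 3.71, with no overlap. On the level scale the gap between the lowest condition with Klf4 and the highest without was 0.15. In column 2 alone the groups overlapped (-0.033), with SKO-L80A (-1.12) below Oct4-L80A (-1.09). This grouping of the conditions was chosen after the values were seen.

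Cd34 (ENSMUSG00000016494, chromosome 1, 194938821 to 194961292) marks blood stem cells, vessel lining and some fibroblasts. Its signal was 5.06 and 6.24 in Klf4 against 2.26 and 4.14 in Flag, 1.22 and 3.46 in Sox2 and 1.27 and 2.21 in Oct4-L80A. The library labelled Oct4 had 1.64 and 5.03. SKO had 5.88 and 6.40, SKO-L80A 5.89 and 7.68, SKO+shBrg1 6.65 and 7.90, SKO-L80A+Vc 3.85 and 5.08 and SKO-L80A+Ga 5.43 and 6.39. As deposited the columns overlap, since the library labelled Oct4 reached 5.03 in column 2 and SKO-L80A+Vc began at 3.85. By level, the lowest condition with Klf4 lay 0.24 above the highest without. The mean level was 0.78 higher with Klf4 for Cd34 and 0.61 higher for Ly6a, and 3.71% of all genes had all 6 levels above the other 4.

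Relative to all genes, Klf4 alone gave the largest differences from Flag of both genes among the 9 comparisons, 1.06 for Ly6a (1.28 and 0.84 in the columns) and 0.82 for Cd34 (0.99 and 0.65). Without the centring SKO+shBrg1 came first for both, with 1.25 for Ly6a and 1.20 for Cd34, against 1.09 and 0.85 in Klf4. At 2.09-fold, Ly6a was past the fold limit, but its mean signal did not reach the minimum, so neither gene was called. In Klf4 against Flag, 0.870% of all genes were called in either direction and 0 of the 8 were. By level, both columns lay above Flag for Ly6a and Cd34 and for 15.9% of all genes. They lay below Flag for Thy1 and Pdgfrb and for 34.3% of all genes. SKO and its variants had 0.60 to 0.97 for Ly6a and 0.46 to 0.67 for Cd34. In Sox2 and Oct4-L80A, which had no Klf4, Cd34 was at -0.45 and -0.66 and Ly6a at -0.14 and 0.18. Across the 10 condition levels the correlation of both genes was 0.85 (Pearson) and 0.92 (Spearman), which is given as a description, since the conditions share the factors and the depth of each library enters both genes.

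**Figure D4:**
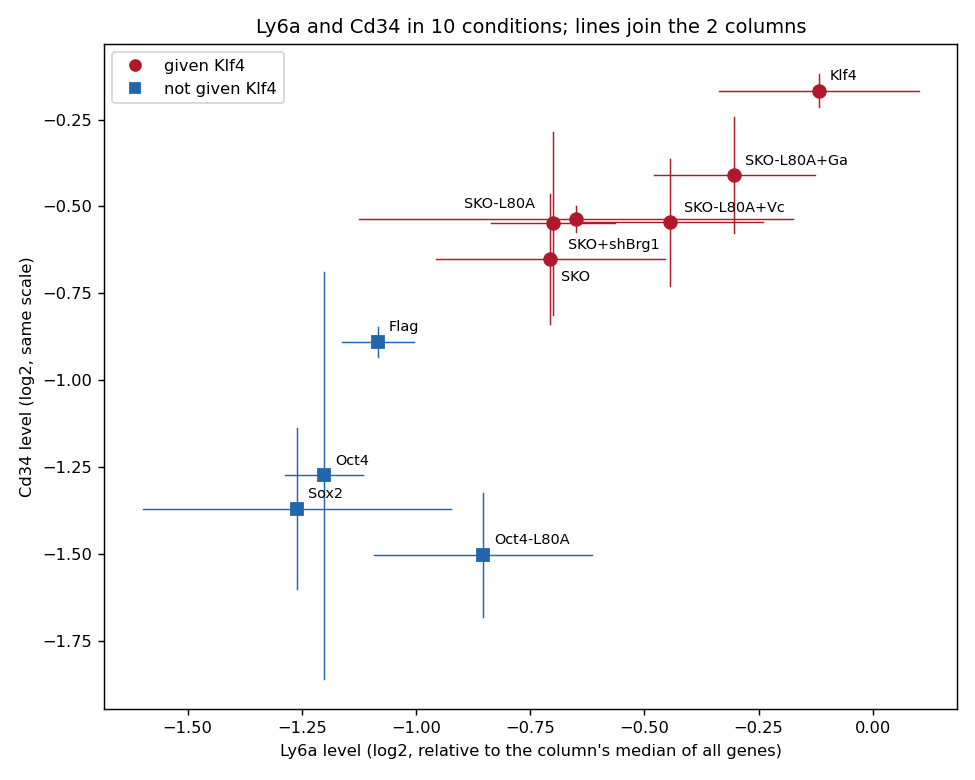
Level of Ly6a (horizontal axis) and Cd34 (vertical axis), both log2 relative to the column's median of all genes, in the 10 conditions, with lines spanning the columns of each condition. Circles are conditions given Klf4 and squares those without. The 6 circles lie above and to the right of the 4 squares, by 0.24 for Cd34 and 0.15 for Ly6a.

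The sequence before the start of Cd34 is shown beside those of Cd44 and Nt5e, which kept an even level, because a difference in accessibility can be read against the letters the factors bind. These are the 250 bases upstream of each start, 5′ to 3′ on the strand of the gene, from RefSeq in GRCm38.p6 at chr1:194938571-194938820 (plus strand), chr2:102901666-102901915 (minus strand) and chr9:88327359-88327608 (plus strand). Capitals mark the GC box GGGCGG read on either strand.
Cd34: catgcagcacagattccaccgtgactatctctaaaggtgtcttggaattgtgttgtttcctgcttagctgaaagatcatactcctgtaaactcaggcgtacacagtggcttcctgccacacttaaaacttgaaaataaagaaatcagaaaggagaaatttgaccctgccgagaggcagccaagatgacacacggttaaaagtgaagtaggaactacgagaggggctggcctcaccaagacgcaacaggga
Cd44: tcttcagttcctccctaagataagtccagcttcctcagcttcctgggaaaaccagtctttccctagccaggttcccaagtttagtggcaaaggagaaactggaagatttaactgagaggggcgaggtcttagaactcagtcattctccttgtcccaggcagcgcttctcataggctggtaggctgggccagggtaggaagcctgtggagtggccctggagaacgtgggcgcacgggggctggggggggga
Nt5e: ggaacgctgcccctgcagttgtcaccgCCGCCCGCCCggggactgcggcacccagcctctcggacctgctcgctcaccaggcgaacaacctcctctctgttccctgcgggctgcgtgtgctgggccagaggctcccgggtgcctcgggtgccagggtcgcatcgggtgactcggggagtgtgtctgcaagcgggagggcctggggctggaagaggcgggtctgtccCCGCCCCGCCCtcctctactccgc
The search covered both strands and 9 motifs. For the factors these were the octamer ATGCAAAT of Oct4, ACAATGG as the first Sox motif, ACAAAGG as the second, GGGTGTGG as the first Klf motif and GGGCGTGG as the second. The rest were the GC box GGGCGG, the AP-1 motif TGANTCA, the CCAAT box, and TATAAA. Nt5e held 4 matches to GGGCGG, in overlapping pairs on the opposite strand, and 32.9% of 27025 promoters of this length hold at least 1. The windows of Cd34 and Cd44 held none of the 9 motifs, and neither did those of Eng and Pdgfra. The Pdgfra window, 75152001 to 75152250, lies past the start of the gene span at 75151322. That of Cd44 overlaps the gene span, which runs to 102901669, so these windows were not placed by the gene spans given here. Among all promoters the share was 1.61% for the octamer, 3.07% and 5.03% for the Sox motifs, 3.19% and 4.84% for the Klf motifs, 6.87% for TGANTCA, 34.5% for CCAAT and 13% for TATAAA. GC content was 46.4% for Cd34 with 6 CpG, 56.4% for Cd44 with 5 CpG and 72% for Nt5e with 21 CpG. No source used here gives the window over which the deposited signal was taken, which may be wider or narrower than these letters.

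Neighbouring genes were read beside both. Cd46, a complement regulator 77679 bases from Cd34, was called higher against Flag in Klf4 (1.33), SKO-L80A (1.13), SKO+shBrg1 (1.00) and SKO-L80A+Vc (1.303). The other 3 neighbours of Cd34 lay below Flag in both columns in Klf4, Camk1g, a calmodulin-dependent kinase, at -0.21, Plxna2, a semaphorin receptor, at -0.18 and Cr1l, a complement regulator, at -0.45. Ly6a lies in a cluster of Ly6 genes with closely related sequences, so reads may be divided between copies and its values are uncertain to that degree. Its near neighbours Ly6c1, Ly6c2 and Ly6i had a signal under the minimum in every column, at most 3.02 (Ly6c1). Their differences from Flag in Klf4 were close to or above the 1.06 of Ly6a, 1.29 for Ly6i, 1.14 for Ly6c1 and 1.03 for Ly6c2, each with both columns above. Ly6c1 was also 1.21 to 1.54 above Flag in SKO and its 4 variants and 1.48 in Sox2, which had no Klf4. Ly6i, at 1.19 in Sox2, was below Flag in SKO (-0.60). Ly6e, which is more broadly expressed, ran from 3.04 to 10.8 and differed by 0.25 in Klf4. Of 12 other genes of the Ly6 family, Ly6d, a surface protein of keratinocytes and lymphoid progenitors, was called higher in Klf4 (3.77-fold), SKO-L80A (3.09-fold) and SKO+shBrg1 (2.72-fold), and none was called lower in the 14 comparisons. The family's median difference in Klf4 was 0.46, when that of all genes is 0 by construction. Lists of other genes had medians of 0.44 (epithelial), 0.39 (endothelial), 0.34 (pluripotent), 0.31 (blood cell) and 0.04 (pericyte and smooth muscle) there, so such a value was not particular to the family. In the other conditions given Klf4 the family's median was 0.05 (SKO), 0.09 (SKO+shBrg1), 0.25 (SKO-L80A), 0.28 (SKO-L80A+Vc) and 0.27 (SKO-L80A+Ga).

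The PDGF receptors did not move alike. Pdgfrb (ENSMUSG00000024620, chromosome 18, 61045127 to 61085067), the receptor that pericytes and many fibroblasts use for PDGF-B, had 10.5 and 17.2 in Flag. It had 7.62 and 8.20 in Sox2, 8.12 and 11.5 in Klf4 and 7.14 and 16.2 in Oct4-L80A, and the library labelled Oct4 had 11.5 in both columns. SKO had 17.1 and 16.1, SKO-L80A 13.4 and 15.4, SKO+shBrg1 18.6 and 14.6, SKO-L80A+Vc 11.3 and 7.97 and SKO-L80A+Ga 15.0 and 10.2. As deposited, the signal of SKO, SKO+shBrg1 and SKO-L80A was above Flag by 0.30, 0.29 and 0.09 before centring. Relative to all genes Pdgfrb was below Flag in all 9 conditions, from -0.16 in Oct4-L80A to -0.67 in Sox2, and none passed the 2-fold limit. It was the only one of the 8 to do so, and 9.39% of all genes did. These comparisons share the Flag library, so a high value in Flag alone would give the same sign in each.

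Pdgfra (ENSMUSG00000029231, chromosome 5, 75151322 to 75198206), the receptor that binds PDGF-A and marks mesenchymal progenitors, varied least of the 8 genes. Its signal was 8.20 and 11.5 in Flag and ran over all columns from 5.64 (Oct4-L80A, column 1) through a median of 11.8 to 17.9 (SKO+shBrg1, column 1). Its levels spanned 0.22, no neighbours in their order had separate columns, and the differences from Flag lay between -0.08 and 0.13. Of 11 ligands and receptor effectors, all in the table, Pdgfb was the only one called. This ligand of both receptors was higher in Klf4 (2.68-fold), SKO (2.07-fold), SKO-L80A (2.12-fold) and SKO+shBrg1 (2.01-fold), with 5.62 and 10.0 in Klf4 against 2.23 and 3.16 in Flag.

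Cd44 (ENSMUSG00000005087, chromosome 2, 102811141 to 102901669), the main hyaluronan receptor, had 15.8 and 22.7 in Flag. Over all columns it ran from 8.72 (Oct4-L80A, column 1) through a median of 20.5 to 34.2 (SKO+shBrg1, column 1), and it reached the minimum signal in all 10 conditions. Klf4 (level 1.73) and Flag (1.69) came first in the order, and Flag was apart from the next, SKO-L80A+Vc (1.49). The other 8 conditions lay between 1.31 and 1.49 with overlapping neighbours. Its largest difference from Flag was -0.40, in Oct4-L80A.

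Of 13 hyaluronan and Cd44 partner genes, 2 were called in any comparison, and the median of the list against Flag lay between -0.14 in Sox2 and 0.29 in SKO-L80A. Has1, a hyaluronan synthase, was called higher in 6 comparisons with Flag. Its signal was 13.4 and 16.5 in Klf4 against 2.77 and 2.77 in Flag, a 5.06-fold difference, and the SKO conditions were 2.32-fold to 3.001-fold higher. It was under the minimum in Sox2 (1.34 and 1.40), Oct4-L80A (1.86 and 3.07) and the library labelled Oct4 (1.96 and 2.41). Hyal1, a lysosomal hyaluronidase, was called higher in SKO (2.01-fold) and SKO-L80A+Vc (2.02-fold). None of the 13 was called lower.

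Eng (ENSMUSG00000026814, chromosome 2, 32646595 to 32682669) lies with its end inside Fpgs, the folate-glutamating enzyme at 32682609 to 32704196, so reads there may count for both. Its signal was 1.16 and 1.18 in Flag and at most 2.96, in SKO+shBrg1 column 1. All 9 differences from Flag were positive, from 0.20 in SKO-L80A to 0.71 in SKO-L80A+Vc, but in column 1 alone the library labelled Oct4 (-0.12), SKO (-0.13) and SKO-L80A (-0.03) were below Flag. Of all genes, 9.26% were above Flag in all 9, and these comparisons share the Flag library, in which Eng was low. At this signal no call was possible, and neighbouring levels overlapped throughout. Of 12 receptors, ligands and Smads of the TGF-beta and BMP9 pathways that endoglin serves, 0 were called in any comparison.

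Nt5e (ENSMUSG00000032420, chromosome 9, 88327609 to 88372089) had 7.05 and 13.3 in Flag, 8.47 and 14.9 in Sox2, 8.27 and 11.5 in Klf4 and 11.2 and 16.5 in the library labelled Oct4. The range over all columns was 5.22 (Oct4-L80A, column 1) to 18.5 (SKO-L80A, column 2). Sox2 (level 0.99) and the library labelled Oct4 (0.91) came first, each 0.30 above Flag as a difference. Sox2 and the library labelled Oct4 are also the only conditions without Klf4 that carry Sox2 signal. This grouping was seen after the values were known, and any link to Nt5e was not tested. The order depends on the processing: SKO+shBrg1 came first without the centring, and SKO-L80A+Ga came before Sox2 in column 2 alone. Levels spanned 0.38 and neighbours in the order overlapped. Among 12 genes that release, break down or sense extracellular ATP and adenosine, 0 were called in any comparison.

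Read by comparison, few of the 8 genes stood apart. The median difference of the 8 from Flag was -0.20 in Sox2, 0.06 in Klf4, -0.003 in the library labelled Oct4 and -0.03 in Oct4-L80A. By level, in Sox2 against Flag, Nt5e had both columns above Flag, as did 11.0% of all genes. Cd34, Pdgfrb and Thy1 had both below, as did 25.1%. The size rule called 0 of the 8 there and 0.168% of all genes. In Oct4-L80A against Flag both columns were above for Thy1 and for 11.6% of all genes, and below for Cd34, Cd44 and Pdgfrb and for 16.1%. The library labelled Oct4 had 0 of the 8 called and 0.260% of all genes.

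The conditions with all factors gave no call among the 8 against Flag. The share of all genes called was 1.42% in SKO, 1.39% in SKO-L80A, 1.44% in SKO+shBrg1, 0.979% in SKO-L80A+Vc and 0.933% in SKO-L80A+Ga. Their median difference over the 8 genes was 0.07 in SKO, 0.16 in SKO-L80A, 0.11 in SKO+shBrg1, 0.21 in SKO-L80A+Vc and 0.29 in SKO-L80A+Ga. All genes moved by 0.50, 0.52, 0.62, 0.02 and 0.24 in these comparisons before centring, so most of the higher deposited values of Cd44, Pdgfra and Nt5e in SKO are shared with all genes.

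Changes made to the SKO mixtures left the 8 genes close to their starting values. In SKO-L80A against SKO, 0 of the 8 and 0.00911% of all genes were called, and the differences ran from -0.21 (Pdgfrb) to 0.30 (Thy1). In SKO+shBrg1 against SKO they ran from -0.10 to 0.14, with 0.00455% of all genes called. Vitamin C gave -0.10 to 0.51 against SKO-L80A, with 0.00911% of all genes called, and Gadd45a gave -0.03 to 0.42, with 0.00% called. Eng had the largest difference in both, 0.51 with vitamin C and 0.42 with Gadd45a, and it was under the minimum signal in each. Before centring these differences of Eng were 0.02 and 0.17, where all genes moved by -0.49 and -0.25.

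**Figure D5:**
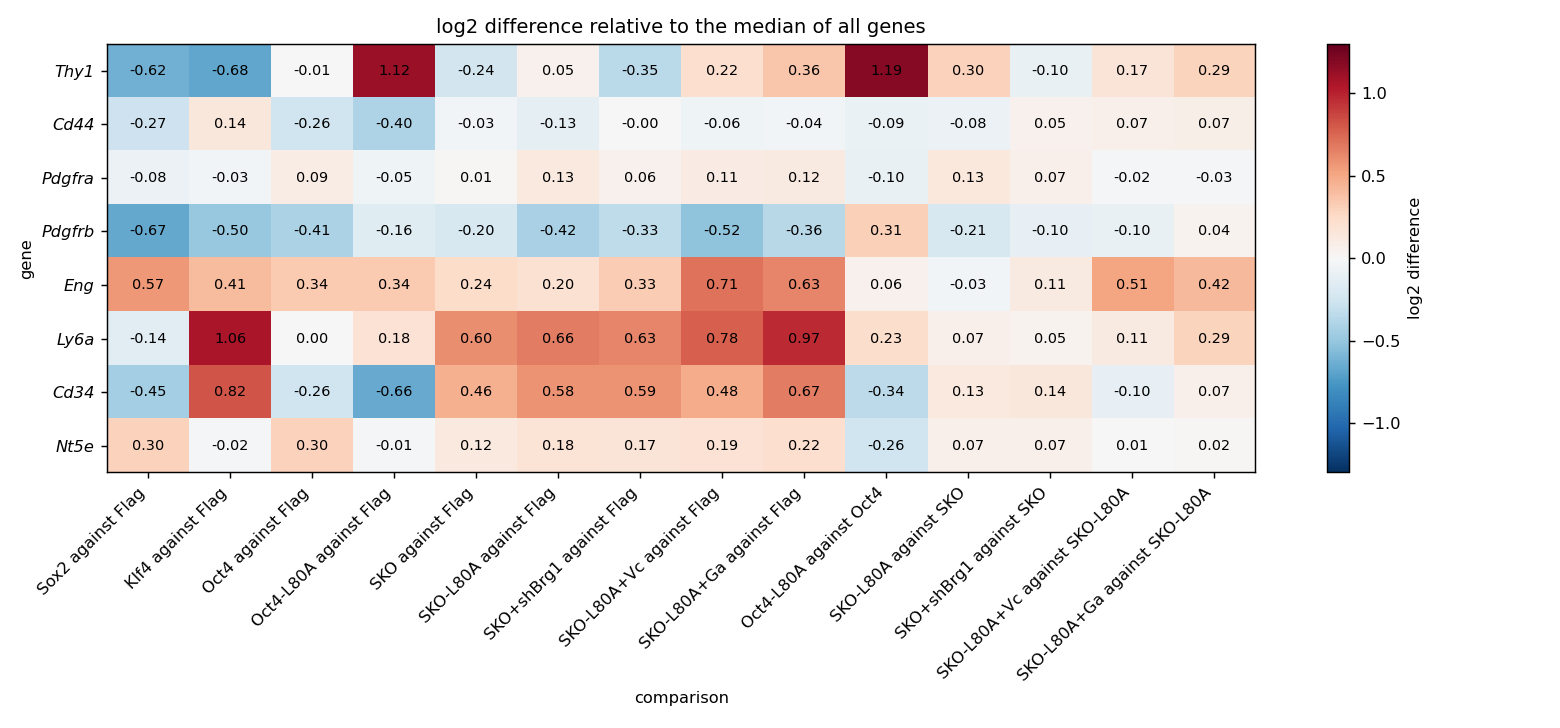
Log2 difference relative to the median of all genes (colour and printed value) for the 8 genes (rows) in the 14 comparisons (columns). Thy1 shows the only 2 values past 1 at the minimum signal, 1.12 and 1.19, both for Oct4-L80A, and Ly6a in Klf4 (1.06) lies under that minimum.

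Other surface and cell type genes were read from lists beside the 8. Of 26 further mesenchymal surface markers, Cd9, a tetraspanin, was the only one called. It was higher than Flag in SKO (3.86-fold), SKO-L80A (3.78-fold), SKO+shBrg1 (3.80-fold), SKO-L80A+Vc (4.77-fold) and SKO-L80A+Ga (4.06-fold), with 14.4 and 9.65 in SKO against 1.45 and 2.85 in Flag. Of the 16 fibroblast genes, Lox, which cross-links collagen, was the only one called. It was lower in Sox2, in the library labelled Oct4 and in SKO-L80A+Vc, 2.57-fold, 2.06-fold and 2.16-fold, and the median of the list relative to all genes lay below 0 in all 9 comparisons with Flag, from -0.13 in the library labelled Oct4 to -0.31 in Sox2.

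Markers of endothelial, blood, pericyte and smooth muscle cells were low but not at 0. The 9 endothelial genes summed to 13.3 to 42.4 per column, the 8 blood cell genes to 11.3 to 40.6, and the 7 pericyte and smooth muscle genes to 20.7 to 67.9. None of these genes was called in any comparison. Cd34 is a marker of endothelial and blood cells too, and in Klf4 against Flag the median difference was 0.39 for the endothelial and 0.31 for the blood cell genes. In Oct4-L80A against Flag, where Thy1 was higher, the medians were 0.25, 0.12 and 0.16 for these lists, and -0.19 for the fibroblast genes. The median was 0.36 for 10 neuronal genes, which are of interest because neurons carry Thy1. It was nearly as high for 9 epithelial markers (0.32) and 11 pluripotent cell genes (0.33). Against the library labelled Oct4, where Thy1 was also called higher, the neuronal median was -0.05. No neuronal gene was called in either comparison. The neuronal genes were not low, with sums of 40.7 to 162 per column. The part of other cell types in the values of Thy1 and Cd34 was not tested.

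The genes most like Thy1 over the 10 condition levels, among 11447 with a mean signal at or above the median of all values, were Zfp871 (Pearson 0.95, Spearman 0.88), Fam118b and Rpusd4 (0.92 each), Evc2 (0.92) and Evc (0.91). Without Oct4-L80A and Klf4, the conditions farthest from the median, the correlations were 0.80 to 0.81. Fam118b and Rpusd4 had almost the same value in every column, as did Evc and Evc2, so these are 3 patterns rather than 5. Their levels spanned 0.42 to 0.51, against 1.94 for Thy1. For Ly6a the closest were Psd4 (0.96) and Has1 (0.96), and for Cd34 Tspo (0.99) and Mrgbp (0.98). Has1 is the hyaluronan synthase described above, and its levels spanned 3.13.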

How the data were processed

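The ATAC-seq table deposited by the authors gives a signal, a density per gene, for 21965 Ensembl genes in 20 columns. No source used here gives the window, the scaling or the reads per library, so depth is unknown and no interval is given. The submitters' processing notes name build mm10 and, without their roles, DESeq2 1.22.2, bedtools 2.25.0, MACS2 2.1.0, SAMtools 1.3.1, Bowtie2 2.2.5, cutadapt 1.13, Trimmomatic 0.35, deepTools and Picard.

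From the deposited signal, differences were computed with Python 3.11.15, numpy 2.4.6 and pandas 2.3.3 (lowess with statsmodels 0.14.6), as log2 of the value plus 0.138, the 10th percentile of values above 0, averaged over the columns of a condition and centred on the median of all genes. Levels are centred on each column's own median. Where columns are said to lie above, below, apart or overlapping without signal values, this is by level. The centrings differ where the shift grows with signal: SKO is 0.50 above Flag by the median difference and 0.72 by the difference of medians. Folds include the pseudocount and understate changes at low signal. The scripts were checked on simulated data.

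With 1 library per condition no test was made. Conditions were taken from the sample titles. The 14 comparisons were 9 with Flag and 5 between other conditions. The 8 genes, the lists, the motifs and the rule for named genes (the 8 genes, at most 3 genes per list, direction and comparison, 5 genes most like Thy1 and 2 most like each other gene, 2 neighbours on each side, and the factor genes) were chosen with earlier results of these data known. Genes called in Oct4-L80A beside Thy1 were named after their values were seen. Alternatives were a pseudocount 4 times larger or smaller, no minimum signal, no centring, quantile normalisation, lowess (fraction 0.3, 3 iterations) and each column alone. Positions and promoters are from RefSeq, matched by symbol. Promoters were matched for 5 of the 8 genes.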

Additional observations from a re-analysis of the deposited data

Results flagged for a closer look

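Relative to all genes, Pdgfrb and Nt5e differed in opposite directions between L80A and wild-type Oct4 with and without the other factors. For Pdgfrb the difference was 0.31 between Oct4-L80A and the library labelled Oct4 and -0.21 between SKO-L80A and SKO, with both columns on the same side of 0 in each. Without the centring the first value was -0.09, so the signs for Pdgfrb are then the same. For Nt5e it was -0.26 alone and 0.067 within SKO, with overlapping levels of the columns in both comparisons. The difference between these contrasts was not tested, since each condition has 1 library, and the library labelled Oct4 also carries Sox2 signal.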

How the results depend on the processing

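The 8 alternatives gave 896 recomputed differences of the 8 genes. Of these, 726 moved by less than the standard deviation of the 2 column differences and 170 moved further. Neither of the 2 called differences changed sign. Thy1 in Oct4-L80A ran from 0.96 to 1.21 against Flag and from 0.79 to 1.40 against the library labelled Oct4. Its call, a count of 1 gene, was 0 without centring and in column 1 alone in both comparisons, and 0 in column 2 alone against the library labelled Oct4. The count of the 8 genes called higher was 1 in Klf4 without a minimum signal, 1 in SKO+shBrg1 without centring, and 1 in SKO-L80A and 1 in SKO-L80A+Ga in column 1 alone. The count called lower was 1 in Sox2 in column 2 alone. The gap of Ly6a between conditions with and without Klf4, 0.15, was 0.62 without centring and -0.033 in column 2 alone. Level ranges without centring were 2.02 for Cd34, 1.18 for Cd44, 0.95 for Eng, 0.96 for Nt5e, 0.89 for Pdgfra, 1.06 for Pdgfrb and 1.67 for Thy1. In column 1 alone they were 1.74 for Cd34, 0.56 for Nt5e, 0.44 for Pdgfra and 2.15 for Thy1, and in column 2 alone 1.10 for Pdgfrb. Without centring, the shift of all genes is part of each value; the cause of the other changes was not tested. No paired analysis was possible because each condition has 1 library. With no read numbers, what depth limits cannot be stated.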

Other observations

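Some cell type genes passed the size rule in conditions where the 8 surface genes did not. Of 9 epithelial markers, 2 were called. Cldn3, a tight junction protein of epithelia, was 3.25-fold to 4.63-fold higher than Flag in SKO and its 4 variants, and Krt8, an epithelial keratin, 2.13-fold to 3.26-fold higher in SKO, SKO-L80A, SKO+shBrg1 and SKO-L80A+Vc. The median of the 9 against Flag was 0.19 in SKO, 0.30 in SKO-L80A and 0.57 in SKO+shBrg1. In each of these, 4 had both columns above and 2 both below Flag. It was 0.62 in SKO-L80A+Vc (6 above, 0 below) and 0.54 in SKO-L80A+Ga (5 above, 0 below). Of all genes, 12.1% were above and 47.5% below in SKO, 11.3% and 46.8% in SKO-L80A and 11.2% and 50.9% in SKO+shBrg1. The shares were 13.6% and 28.3% in SKO-L80A+Vc and 11.9% and 37.0% in SKO-L80A+Ga. Of 11 pluripotent cell genes, Gdf3 was the only one called. Gdf3, a ligand made by pluripotent cells, was 5.11-fold to 6.95-fold higher in SKO, SKO-L80A, SKO+shBrg1 and SKO-L80A+Ga. The median of the 11 was 0.02 in SKO, where 2 had both columns above and 5 both below Flag. It was 0.07 in SKO-L80A (1 above, 5 below), -0.02 in SKO+shBrg1 (2 above, 3 below) and 0.18 in SKO-L80A+Ga (2 above, 2 below). In the same conditions the shares of all genes below Flag were 47.5%, 46.8%, 50.9% and 37.0%, and those above 12.1%, 11.3%, 11.2% and 11.9%. Of 10 neuronal genes, 3 were called, and the median against Flag lay between 0.18 in Sox2 and 0.73 in SKO-L80A+Vc. Stmn2, a neuronal tubulin-binding protein, was 3.28-fold higher in Klf4 and 4.15-fold to 4.31-fold higher in SKO and its 4 variants. Map2, a neuronal microtubule protein, was called in the library labelled Oct4 (2.08-fold), and Syt1, a synaptic vesicle protein, in SKO (2.12-fold) and SKO-L80A+Vc (2.02-fold).

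The genes closest to the other members over the 10 condition levels were Srgap3 (Pearson 0.93) and Ercc6l2 (0.93) for Cd44, Zfp521 (0.90) and D230025D16Rik (0.89) for Pdgfra, Tcea1 (0.97) and Kmt2b (0.97) for Pdgfrb, Pik3c2b (0.89) and Gab2 (0.81) for Eng, and Dnal1 (0.93) and Hspa4l (0.92) for Nt5e. Without the 2 conditions farthest from the median for each member, the Cd44 values fell to 0.62 and 0.58 (Klf4 and Flag left out). They were then 0.84 and 0.79 for Pdgfra and 0.84 and 0.89 for Pdgfrb. Eng had 0.82 and 0.75, and Nt5e 0.85 and 0.88.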
